A study of Mus musculus with 3 samples.

Results

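The keratin genes of the mouse were followed through 3 pooled RNA sequencing libraries of mammary cells. Members were the genes named Krt followed by digits alone, which leaves out the keratin-associated proteins (Krtap) and keratins with a letter suffix such as Krt6a. This gave 46 of the 22378 gene models in each table, 26 of type I and 20 of type II. The study set out to describe the expression profile of lung-colonizing cells and the genes that differ between them and their source populations.

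All animals were of the FVB strain. The LCC library held mammary cells that lodged in the lung: glands of FVB.GFP females, or cells of FVB mice stained with the dye DDAO, were dissociated and injected into a vein of FVB recipients, and labelled cells were sorted from the dissociated lungs 1 day later. It pooled 15 experiments, 42 lungs and 455880 cells, with 8 donor females, 4 recipients and 2 injections of 2500000 cells given for an experiment, and no EpCAM or CD29 gate is named for this sort. The E-Int29-Hi library combined 3 samples of cells from a sort on intermediate EpCAM and high CD29 (integrin beta 1). Its label says that the colonizing cells are included among these sorted cells. The MG library combined 3 samples of mammary gland that had not been dissociated. The sources used here give no ages.

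Keratins are the intermediate filament proteins of epithelial cells, and each filament is built from paired type I and type II chains. In the mammary gland, the inner luminal cells are known for the simple keratins K8, K18, K19 and K7, and the outer basal or myoepithelial cells for K5, K14 and K17. The ratio of these sets is widely used to tell the layers apart, although embryonic and some progenitor cells carry both.

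Levels are FPKM, the number of fragments relative to the gene model's length and to the library's mapped fragments, so that keratins of different length can be compared within a library. Each group was 1 library, so no value has a replicate error and no test was run. The sources used here give no read totals, so the depth is unknown and no counting interval is given. A gene was called higher or lower when 2 libraries stood at least 4-fold apart on the log2(FPKM + 1) scale, among genes at 1 FPKM or more in either one, and this scale understates the difference of low genes. All 46 keratins had the status OK in every library, and 15 reached 1 FPKM in at least 1 library. Genes listed at 0 made up 30.9% of 22077 gene names in LCC, 22.4% of them in E-Int29-Hi and 14.3% of them in MG. In a bulk library, fewer cells of a type and less RNA per cell cannot be told apart.

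The regions around the starts of 4 keratin genes are shown because Krt8, Krt18 and Krt7 were called higher, and Krt5 lower, in LCC than in E-Int29-Hi. Krt14 and Krt17, which held more of the E-Int29-Hi keratin pool than Krt5, are not shown. Krt8 and Krt18 encode the main pair of simple keratins, Krt7 a simple type II chain, and Krt5 the type II chain of basal cells. The sequences are from RefSeq on the build GRCm38.p6, run 5′ to 3′ on the gene's strand, and reach from 250 bases before the annotated start to 50 bases from it onward. The files' own build, mm9, differs, so these positions are not the files' coordinates. Krt8 lies at chr15:102004293-102004592 on the minus strand, Krt18 at chr15:102027966-102028265 on the plus strand, Krt7 at chr15:101412153-101412452 on the plus strand and Krt5 at chr15:101712856-101713155 on the minus strand. Capitals mark matches, on either strand, to TATAAA (the TATA box core), GGGCGG (the GC box), TGANTCA (bound by AP-1) or GCCNNNGGC (bound by AP-2).
Krt8: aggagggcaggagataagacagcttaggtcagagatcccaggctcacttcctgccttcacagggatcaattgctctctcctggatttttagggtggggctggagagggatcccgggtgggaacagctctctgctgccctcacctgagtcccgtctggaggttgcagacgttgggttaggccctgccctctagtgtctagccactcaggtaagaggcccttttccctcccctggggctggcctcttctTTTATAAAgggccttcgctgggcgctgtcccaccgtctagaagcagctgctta
Krt18: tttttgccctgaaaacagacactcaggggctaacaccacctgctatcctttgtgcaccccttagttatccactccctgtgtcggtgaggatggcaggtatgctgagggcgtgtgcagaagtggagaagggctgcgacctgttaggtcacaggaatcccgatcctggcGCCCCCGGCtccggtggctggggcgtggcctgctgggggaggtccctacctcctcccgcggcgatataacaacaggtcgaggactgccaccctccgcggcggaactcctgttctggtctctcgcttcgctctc
Krt7: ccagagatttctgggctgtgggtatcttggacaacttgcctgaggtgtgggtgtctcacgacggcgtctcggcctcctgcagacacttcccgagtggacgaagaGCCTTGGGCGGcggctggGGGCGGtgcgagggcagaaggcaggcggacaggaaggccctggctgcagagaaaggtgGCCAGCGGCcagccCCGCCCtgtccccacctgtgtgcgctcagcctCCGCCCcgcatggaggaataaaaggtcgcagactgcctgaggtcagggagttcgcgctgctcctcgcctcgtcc
Krt5: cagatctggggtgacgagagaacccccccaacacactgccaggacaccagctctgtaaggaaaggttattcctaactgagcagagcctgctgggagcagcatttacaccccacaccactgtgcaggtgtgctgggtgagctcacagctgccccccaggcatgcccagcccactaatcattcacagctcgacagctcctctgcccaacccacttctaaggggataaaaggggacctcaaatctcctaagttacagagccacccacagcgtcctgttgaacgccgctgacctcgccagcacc

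The Krt7 window held 4 matches to GGGCGG and 2 to GCCNNNGGC, the first of which overlaps a GGGCGG match. The Krt18 window held 1 match to GCCNNNGGC. The Krt8 window held TATAAA on both strands, overlapping each other across the annotated start. The Krt5 window held no match to these motifs, which says nothing of the factors. Across 32851 windows of the same length, TATAAA was present in 13.6%, GGGCGG in 35.7%, TGANTCA in 7.81% and GCCNNNGGC in 16.6%. Windows at the annotated gene start were found for 27 keratins. TATAAA stood in 13 of 21 such keratins under 1 FPKM in all 3 libraries, and in 2 of 6, Krt8 and Krt42, among those at 1 FPKM or more somewhere. A match counted anywhere in the window on either strand, and that of Krt42 lay after the annotated start. The 32851 windows were not limited to gene starts. The 6 leave out Krt14, Krt17 and Krt19 among others, so these counts cannot compare keratins above and below 1 FPKM.

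Simple keratins made up most of the keratin pool of LCC and of MG, and basal keratins most of that of E-Int29-Hi. Krt7, Krt8, Krt18, Krt19, Krt20 and Krt23 together held 86.9% of the summed keratin FPKM in LCC, 5.70% of it in E-Int29-Hi and 83.6% of it in MG. Krt5, Krt14, Krt15, Krt16 and Krt17 held 12.8% of the LCC sum, 93.7% of the E-Int29-Hi sum and 11.2% of the MG sum. All keratins together summed to 4741 FPKM in LCC (1.26% of all FPKM), 5314 FPKM in E-Int29-Hi (1.63%) and 2431 FPKM in MG (0.844%). A few genes carried each pool. The 4 most abundant keratins held 87.0% of it in LCC (Krt18, Krt8, Krt17, Krt7), 94.4% in E-Int29-Hi (Krt14, Krt17, Krt5, Krt8) and 83.7% in MG (Krt18, Krt8, Krt19, Krt14).

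**Figure D1:**
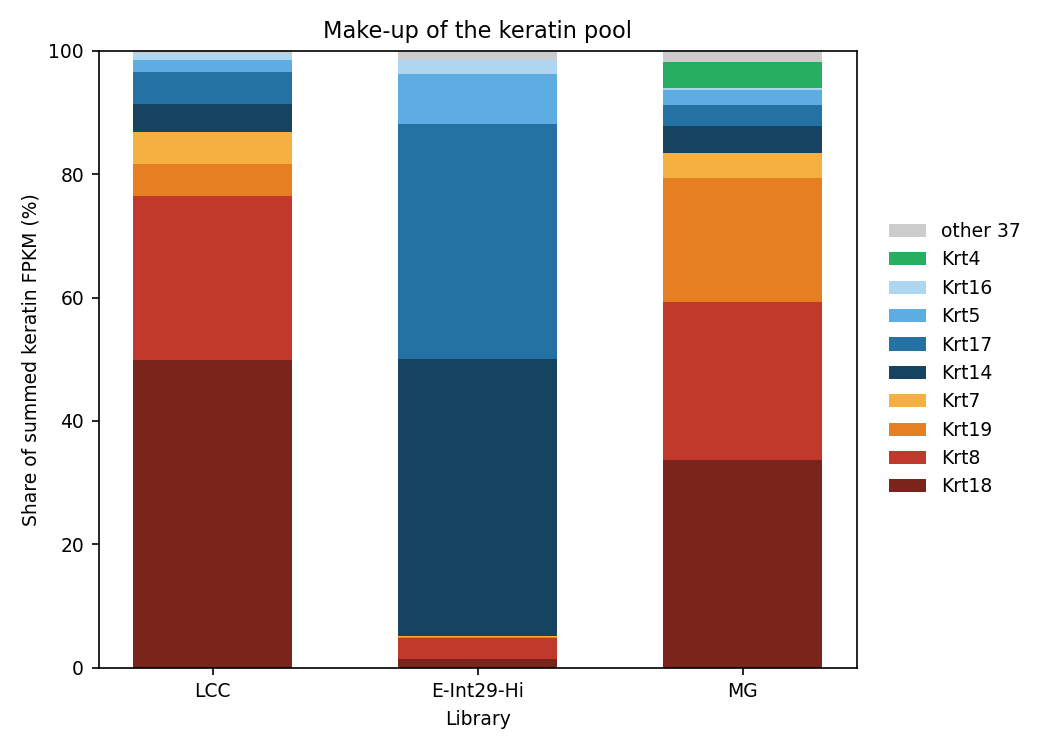
Stacked bars give the share (%) of the summed FPKM of 46 keratins held by each of 9 named keratins and by the other 37, in each library (1 pooled library per bar, no error). Krt18 and Krt8 fill 76.5% of the LCC bar and 59.3% of the MG bar, and Krt14 and Krt17 fill 83.0% of the E-Int29-Hi bar.

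Among the simple keratins, Krt18, the type I partner of K8, stood at 2368 FPKM in LCC, 73.5 FPKM in E-Int29-Hi and 819 FPKM in MG. Among all gene names it held rank 9 in LCC, rank 750 in E-Int29-Hi and rank 19 in MG. Krt8 stood at 1258 FPKM in LCC, 179.7 FPKM in E-Int29-Hi and 624 FPKM in MG. Both genes were thus highest in LCC and lowest in the sorted population. Krt7, a type II simple keratin of ducts and glands, followed the same order, with 249 FPKM in LCC, 7.96 FPKM in E-Int29-Hi and 98.7 FPKM in MG.

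Krt19, the smallest type I keratin and a marker of luminal cells, had another order. It stood at 244 FPKM in LCC, 16.2 FPKM in E-Int29-Hi and 488 FPKM in MG, so that MG was highest. Among the 4 abundant simple keratins it was the one that stood below MG in LCC, with a ratio of 0.4999. For Krt8 the ratio of LCC to MG was 2.02, for Krt7 it was 2.52 and for Krt18 it was 2.89. Krt18 exceeded Krt19 by 9.70 times in LCC, 4.54 times in E-Int29-Hi and 1.68 times in MG. Krt20, the keratin of gut lining and umbrella cells, stayed under 1 FPKM, at 0.182 FPKM in LCC, 0.109 FPKM in E-Int29-Hi and 0.363 FPKM in MG. Krt23, a type I keratin placed with the simple keratins here, went with the basal genes instead, at 1.57 FPKM in LCC, 25.6 FPKM in E-Int29-Hi and 2.87 FPKM in MG.

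Among the basal keratins, Krt14, the type I partner of K5, stood at 209.8 FPKM in LCC, 2380.5 FPKM in E-Int29-Hi and 104 FPKM in MG. Krt17, a type I keratin of basal cells that is also induced in wounded skin, stood at 251 FPKM in LCC, 2029 FPKM in E-Int29-Hi and 82.5 FPKM in MG. Krt5 stood at 92.3 FPKM in LCC, 426 FPKM in E-Int29-Hi and 60.7 FPKM in MG. These 3 genes had E-Int29-Hi highest, LCC between and MG lowest. Krt14 exceeded Krt17 in E-Int29-Hi (1.17 times) and MG (1.26 times), while in LCC Krt17 exceeded Krt14 (1.19 times).

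Krt16, an inducible type I keratin known from wounded and hyperproliferative epidermis, stood at 53.4 FPKM in LCC, 120.7 FPKM in E-Int29-Hi and 8.91 FPKM in MG. It had the same order as Krt14, Krt17 and Krt5, and LCC stood 6.00 times above MG. Krt15, a type I keratin of basal cells and of hair follicle stem cells, departed from it. Krt15 stood at 0.582 FPKM in LCC, 20.3 FPKM in E-Int29-Hi and 16.1 FPKM in MG, so the gated cells and the gland were close and LCC was low.

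**Figure D2:**
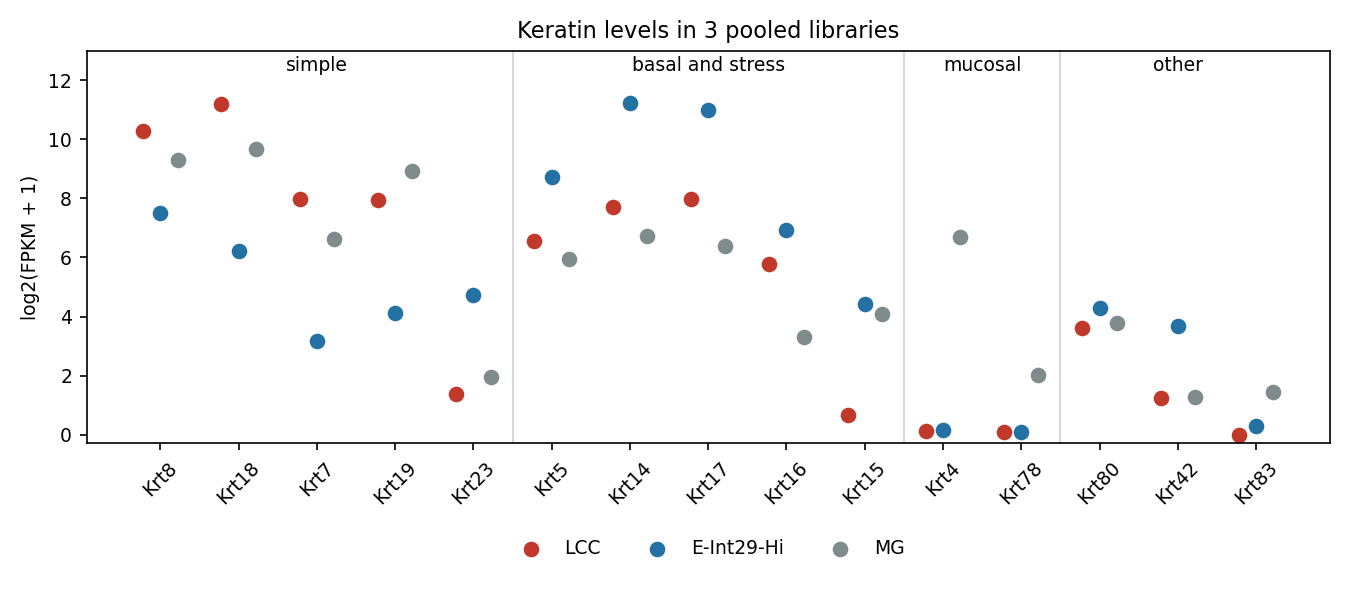
Points give log2(FPKM + 1) of the 15 keratins that reached 1 FPKM, grouped by role, in LCC, E-Int29-Hi and MG (1 pooled library per point, no error). Krt8, Krt18 and Krt7 are highest in LCC, the basal and stress keratins are highest in E-Int29-Hi, and Krt4 is abundant in MG alone.

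Of the mucosal keratins, Krt4, the type II keratin of internal stratified epithelia, stood at 0.0761 FPKM in LCC, 0.117 FPKM in E-Int29-Hi and 102 FPKM in MG. It held 4.18% of the keratin pool of MG. Krt13, the usual type I partner of K4, did not accompany it and stood at 0.1005 FPKM in LCC, 0.0258 FPKM in E-Int29-Hi and 0.233 FPKM in MG. Krt78, a type II keratin and near neighbour of Krt4 in the cluster, stood at 0.0750 FPKM in LCC, 0.0652 FPKM in E-Int29-Hi and 3.04 FPKM in MG. Krt4 and Krt78 were thus highest in MG and near 0 in both sorted populations.

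Of the remaining keratins, Krt80, a type II keratin of differentiating epithelia, was nearly even, at 11.1 FPKM in LCC, 18.4 FPKM in E-Int29-Hi and 12.8 FPKM in MG. Krt42, a type I keratin whose human counterpart is a pseudogene, stood at 1.33 FPKM in LCC, 11.8 FPKM in E-Int29-Hi and 1.41 FPKM in MG. Krt83, a hair keratin, was listed at 0 in LCC and stood at 0.2200 FPKM in E-Int29-Hi and 1.73 FPKM in MG. By any amount, 3 of the 15 keratins were highest in LCC, 8 were highest in E-Int29-Hi and 4 were highest in MG. The 8 include Krt15 and Krt80, which were not called between E-Int29-Hi and MG. The same count over all gene names was not made.

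The other 31 keratins stayed under 1 FPKM in every library. They comprise the epidermal differentiation keratins except Krt80, the inner root sheath and companion layer keratins, and the hair keratins except Krt83, along with Krt12, Krt13, Krt20, Krt24, Krt76 and Krt222. Nearest to the 1 FPKM line were Krt75 (0.983 FPKM in E-Int29-Hi) and Krt10 (0.976 FPKM in LCC), while Krt83 was the lowest of those above it. Of these 31, LCC had 8 above 0 (25.81%), E-Int29-Hi had 22 (70.97%) and MG had 29 (93.55%). Among all 9305 gene names under 1 FPKM in each library, 28.2% stood above 0 in LCC, 47.1% did so in E-Int29-Hi and 66.1% did so in MG, so the order of the libraries was the same as for genes at large. Krt10, Krt13, Krt20, Krt31, Krt73, Krt79, Krt84 and Krt86 were above 0 in all 3 libraries, and Krt40 was listed at 0 in all. Of the hair follicle markers outside the keratin family, 0 of 7 reached 1 FPKM in LCC, 1 did so in the E-Int29-Hi library (Dlx3) and 2 did so in MG (Msx2 and Dlx3), and Krtap3-1 and Krtap16-1 were listed at 0 throughout.

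Between the cells recovered from the lung and the gated population, 4 of 6 simple keratins were higher and 1, Krt23, was lower in LCC, while 4 of 5 basal keratins were lower and 0 higher. Of 46 keratins, 12 were at 1 FPKM or more in either library. Krt7, Krt8, Krt18 and Krt19 were higher, 4 in all, against a background of 4.64% of 12147 gene names higher. Krt5, Krt14, Krt15, Krt17, Krt23 and Krt42 were lower, 6 in all, against a background of 4.35% lower. Krt16 and Krt80 were not called. The log2 differences reached 4.99 for Krt18, 4.80 for Krt7, 3.83 for Krt19 and 2.80 for Krt8, and -3.75 for Krt15, -3.50 for Krt14, -3.37 for Krt23, -3.01 for Krt17, -2.45 for Krt42 and -2.20 for Krt5. The median over the 12 keratins was -1.68, beside 0.26 over all gene names compared. After each library was divided by its median ratio to the 3 libraries, the median over all gene names was 0.00. This scaling brings that median near 0 by its construction.

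Between LCC and MG, fewer keratins stood apart. Of 15 keratins at 1 FPKM or more in either library, 1, Krt16, was higher (log2 difference 2.46), against a background of 1.33% of 12443 gene names. Krt4 (-6.58) and Krt15 (-3.44), 2 in all, were lower, against a background of 2.63%. The other 12 were not called, among them Krt17 (1.59), Krt18 (1.53), Krt7 (1.33), Krt8 (1.01), Krt14 (1.01), Krt5 (0.60) and Krt19 (-0.997). The median over the 15 was -0.04, beside 0.01 over all gene names compared. With a pseudocount of 0.1 the count lower was 4, with Krt78 and Krt83 added, and with a pseudocount of 5 it was 1, without Krt15.

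Between the gated population and the gland, 4 of 5 basal keratins were higher and 0 lower in E-Int29-Hi, while 3 of 6 simple keratins were lower and 1, Krt23, was higher. Of 15 keratins, Krt5, Krt14, Krt16, Krt17, Krt23 and Krt42 were higher in E-Int29-Hi, 6 in all, against a background of 2.6% of 12430 gene names. Krt4, Krt7, Krt18 and Krt19, 4 in all, were lower, against a background of 3.97%. Among them the largest increases were Krt17 (log2 difference 4.60) and Krt14 (4.50), and the largest decreases Krt4 (-6.52) and Krt19 (-4.83). Krt8 stood lower by less than the threshold (-1.79), and Krt15 was near even (0.32). The median over the 15 was 0.32, beside -0.23 over all gene names compared. The 3 comparisons share libraries, so their values are not independent of each other.

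**Figure D3:**
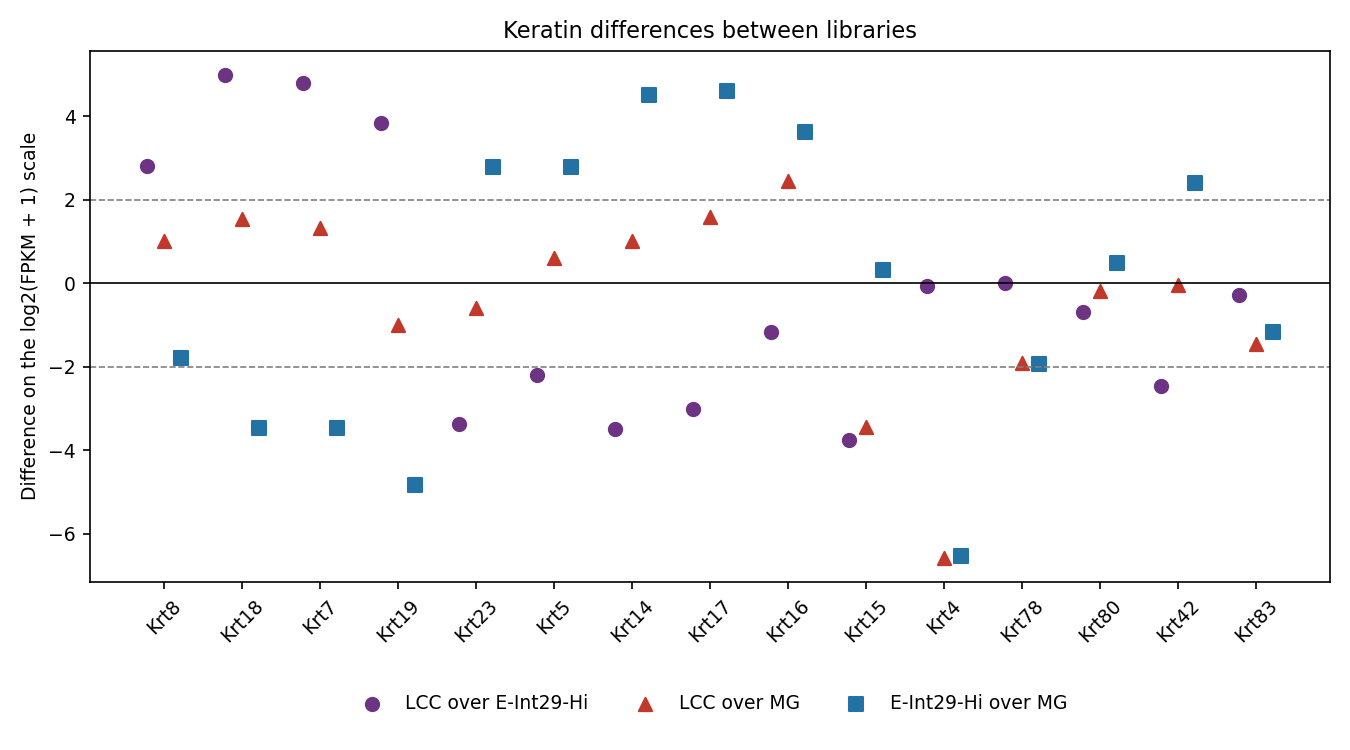
Points give the difference on the log2(FPKM + 1) scale for 15 keratins in LCC over E-Int29-Hi, LCC over MG and E-Int29-Hi over MG, with dashed lines at 2 and -2 (1 pooled library per group, no error). Krt18 stands at 4.99 in LCC over E-Int29-Hi and 1.53 in LCC over MG, and Krt14 at -3.50 in LCC over E-Int29-Hi and 1.01 in LCC over MG.

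Because keratins pair, the balance between chains was also read within each library, where scaling between libraries does not enter. Krt8 plus Krt18 exceeded Krt5 plus Krt14 by 12.001 times in LCC and 8.77 times in MG, while in E-Int29-Hi Krt5 plus Krt14 exceeded Krt8 plus Krt18 by 11.1 times. LCC had a Krt18 to Krt8 ratio of 1.88, E-Int29-Hi one of 0.409 and MG one of 1.31, so in the gated cells the type II chain of the simple pair stood above its partner. The ratio of Krt14 to Krt5 was 2.27 in LCC, was 5.58 in E-Int29-Hi and was 1.71 in MG. Summed over all members, type I exceeded type II by 1.94 times in LCC (3131 FPKM of type I, 1611 of type II), 7.37 times in E-Int29-Hi (4679 and 635 FPKM) and 1.69 times in MG (1527 and 904 FPKM). In LCC and MG this excess rested on Krt18: without it the log2 ratio was -1.08 in LCC and -0.35 in MG.

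**Figure D4:**
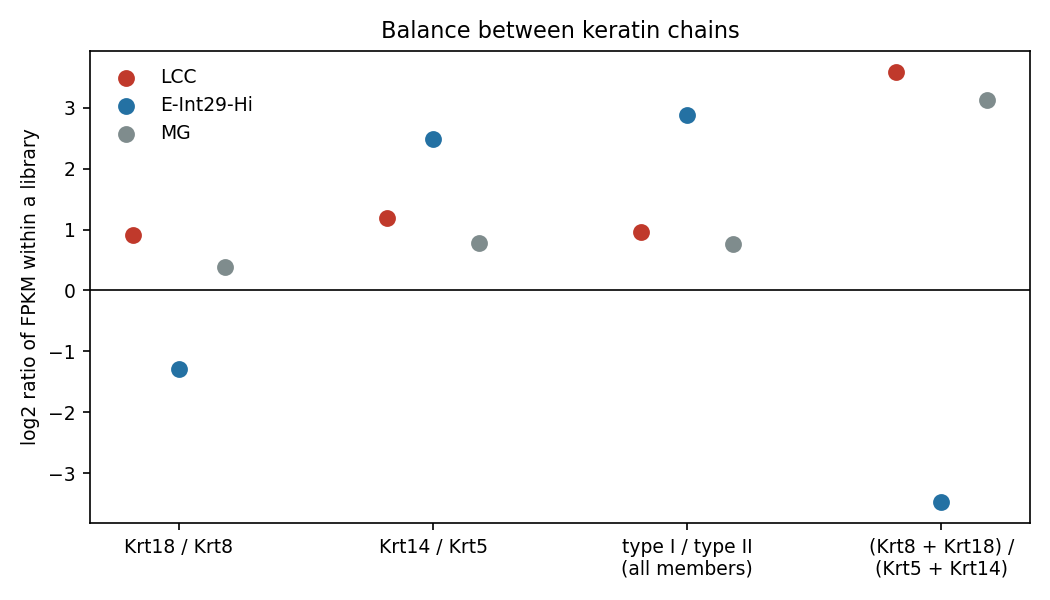
Points give the log2 ratio of FPKM within a library for Krt18 to Krt8, Krt14 to Krt5, all type I to all type II keratins, and Krt8 plus Krt18 to Krt5 plus Krt14 (1 pooled library per point, no error). E-Int29-Hi lies below 0 for the first and last ratio and above LCC and MG for the others.

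Some keratin transcripts share sequence with other genes, which could shift reads between them. In the mouse transcripts of GENCODE M21, windows of 50 bases found also in another gene made up 37.6% of Krt16 (shared with the model Gm11597, Krt14 and Krt17), 29.7% of Krt8 (mainly its pseudogene Krt8-ps), 23.2% of Krt83 (Krt86, Krt81 and Krt87), 14.4% of Krt14 (Krt16 and Krt17) and 12.2% of Krt5 (Krt6a and other models). The share was 3.995% for Krt17, 3.88% for Krt80 and under 1% for Krt18, Krt7, Krt15 and Krt42, and no window was shared for Krt4, Krt19, Krt23 and Krt78. The levels of Krt16, Krt8 and Krt83 are therefore the least certain in this respect, and the sources used here give no read length.

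Type I keratin genes lie in one cluster and type II genes in another, with Krt18 at the end of the type II cluster beside Krt8. In the RefSeq gene order of GRCm38.p6, Krt15, Krt19, Krt9, Krt14, Krt16, Krt17 and Krt42 follow each other at one end of the type I cluster. Of these, Krt9 was the one under 1 FPKM everywhere, at 0 in LCC, 0.246 FPKM in E-Int29-Hi and 0.0227 FPKM in MG. Krt19, highest in MG, lies near Krt14, Krt16, Krt17 and Krt42, which were highest in E-Int29-Hi. Its direct neighbours were Krt15, near even between E-Int29-Hi and MG, and Krt9. In the other cluster Krt80 and Krt7 were neighbours, Krt5 lay next to Krt6a, and Krt8 and Krt18, neighbours at the end, differed in the same direction in each comparison.

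**Figure D5:**
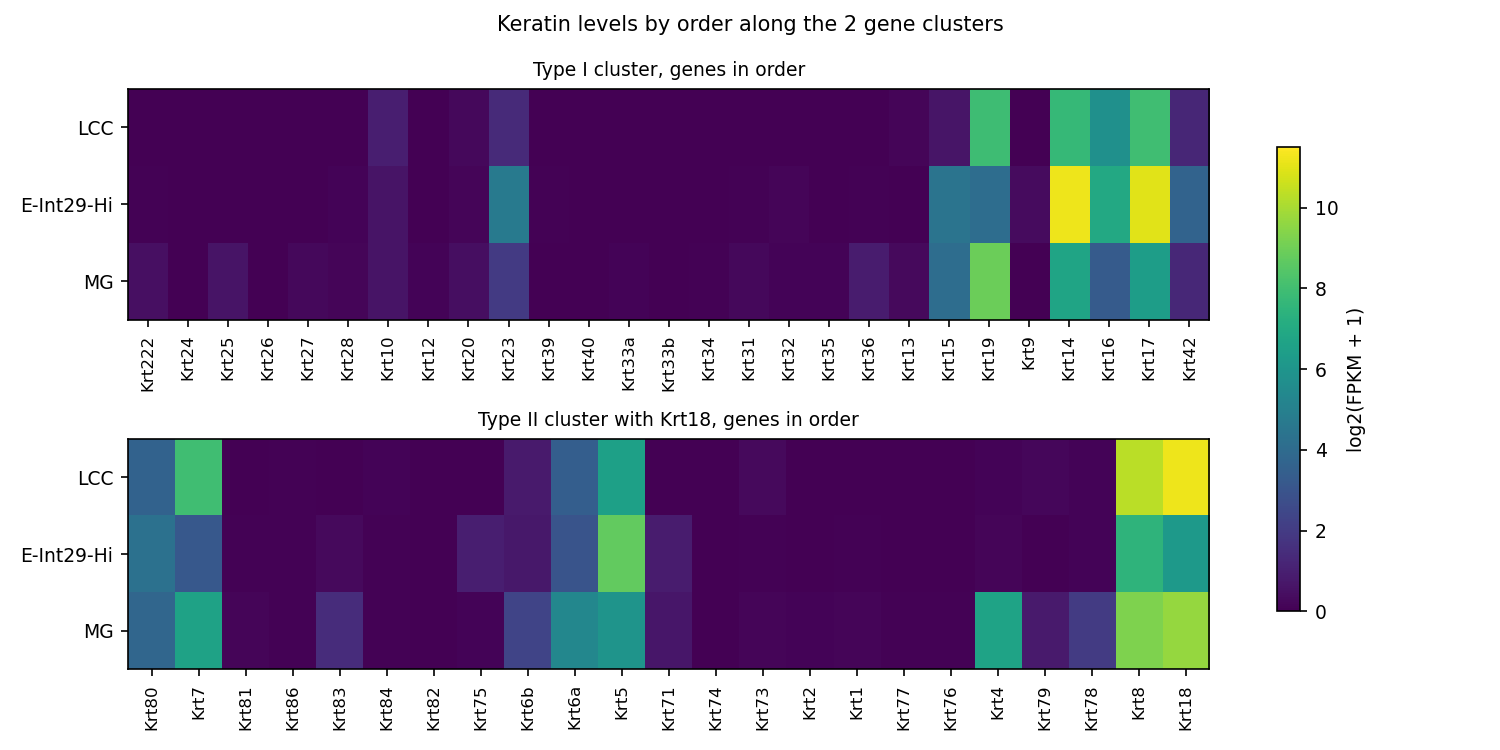
Colour gives log2(FPKM + 1) of keratin genes in their order along the type I cluster (upper panel) and the type II cluster with Krt18 (lower panel), with LCC, E-Int29-Hi and MG as rows, Krt6a, Krt6b, Krt33a and Krt33b included (1 pooled library per row, no error). High levels sit at one end of the type I cluster and at Krt7, Krt5, Krt8 and Krt18 in the other, and Krt4 is high in MG.

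Genes known to anchor keratin filaments were read beside the keratins. The list held 20 genes, of desmosomes, hemidesmosomes and plakins except for Krtcap3, which is outside these groups and was not called in any comparison. Of the 20, 18 were at 1 FPKM or more in LCC or E-Int29-Hi. Pkp2, a plakophilin of simple epithelia and heart, was the 1 of these higher in LCC than in E-Int29-Hi (13.2 FPKM in LCC, 0.380 FPKM in E-Int29-Hi). In the same comparison 3 were lower, namely Itga6, Col17a1 and Dst, which encode parts of hemidesmosomes, beside a background of 4.64% higher and 4.35% lower. Itga6 stood at 26.8 FPKM in LCC and 351 FPKM in E-Int29-Hi, Col17a1 at 19.4 FPKM in LCC and 115 FPKM in E-Int29-Hi, and Dst at 21.8 FPKM in LCC and 132 FPKM in E-Int29-Hi. The hemidesmosome genes Itgb4 (37.4 FPKM in LCC, 25.0 FPKM in E-Int29-Hi) and Plec (39.7 FPKM in LCC, 24.7 FPKM in E-Int29-Hi) were not called and stood above E-Int29-Hi in LCC. Between LCC and MG, 0 of 17 at 1 FPKM or more were called in either direction, beside a background of 1.33% higher and 2.63% lower. Between E-Int29-Hi and MG, Pkp1, a plakophilin of stratified epithelia (155 FPKM in E-Int29-Hi, 16.003 FPKM in MG), and Col17a1 (115 FPKM in E-Int29-Hi, 23.3 FPKM in MG) were higher. Pkp2 and the cornified envelope plakins Ppl (5.04 FPKM in E-Int29-Hi, 26.4 FPKM in MG) and Evpl (0.2499 FPKM in E-Int29-Hi, 4.03 FPKM in MG) were lower. This pair had 17 genes of the list at 1 FPKM or more in either library, and a background of 2.6% higher and 3.97% lower. Jup, plakoglobin, and Dsp, desmoplakin, were not called in any comparison, with Jup at 94.6 FPKM in LCC, 242 FPKM in E-Int29-Hi and 127 FPKM in MG, and Dsp at 49.6 FPKM in LCC, 106 FPKM in E-Int29-Hi and 42.8 FPKM in MG. The list's median log2 difference was -0.45 for LCC over E-Int29-Hi, -0.26 for LCC over MG and 0.55 for E-Int29-Hi over MG, beside 0.26, 0.01 and -0.23 over all gene names compared in these pairs.

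Among 16 other intermediate filament genes, Vim, vimentin of mesenchymal cells, stood at 1638 FPKM in LCC, 154 FPKM in E-Int29-Hi and 521 FPKM in MG. Of 9 at 1 FPKM or more in LCC or E-Int29-Hi, Vim was the 1 higher in LCC. Synm, synemin, was the 1 lower (1.03 FPKM in LCC, 15.4 FPKM in E-Int29-Hi), beside a background of 4.64% higher and 4.35% lower. None was called of 8 compared for LCC over MG (background 1.33% higher, 2.63% lower) or of 9 for E-Int29-Hi over MG (2.6% and 3.97%). The list's median log2 difference was -0.09 for LCC over E-Int29-Hi, -0.21 for LCC over MG and 0.35 for E-Int29-Hi over MG. Over all gene names compared in these pairs the medians were 0.26, 0.01 and -0.23. Lmna, the nuclear lamin A gene, stood at 375 FPKM in LCC, 565 FPKM in E-Int29-Hi and 442 FPKM in MG.

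Among 16 genes of transcription factors tied to epithelial identity, Trp63, the basal factor p63 (6.41 FPKM in LCC, 46.0 FPKM in E-Int29-Hi), and Sox10 (15.0 FPKM in LCC, 215 FPKM in E-Int29-Hi) were lower in LCC than in E-Int29-Hi. Ehf, an epithelial ETS factor, was higher (26.4 FPKM in LCC, 1.92 FPKM in E-Int29-Hi). Compared with MG, Elf5, an alveolar luminal factor (0.964 FPKM in LCC, 15.6 FPKM in MG), and Esr1, the oestrogen receptor (0.734 FPKM in LCC, 10.6 FPKM in MG), were lower in LCC and 0 were higher. In E-Int29-Hi, Sox10 was higher than in MG (24.5 FPKM in MG). Elf5 (2.90 FPKM in E-Int29-Hi), Ehf (19.0 FPKM in MG) and Foxa1, a luminal factor (0.761 FPKM in E-Int29-Hi, 10.3 FPKM in MG), were lower there. In each pair 14 of the 16 were at 1 FPKM or more in either library. The background was 4.64% higher and 4.35% lower for LCC over E-Int29-Hi, and 1.33% and 2.63% for LCC over MG. For E-Int29-Hi over MG it was 2.6% and 3.97%. The list's median was -0.75 for LCC over E-Int29-Hi, -0.98 for LCC over MG and -0.42 for E-Int29-Hi over MG. Over all gene names compared in these pairs the medians were 0.26, 0.01 and -0.23. Klf4 was abundant and not called, at 98.9 FPKM in LCC, 105 FPKM in E-Int29-Hi and 191 FPKM in MG.

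Markers of the epithelial layers outside the keratin family were read beside these values. Of 12 basal genes, 10 were lower and 0 higher in LCC than in E-Int29-Hi, with Acta2, smooth muscle actin, at 84.2 FPKM in LCC and 1901 FPKM in E-Int29-Hi. The list's median log2 difference was -4.22, beside 0.26 over all gene names. On the luminal side, 4 of 12 genes (Cldn3, Cldn4, Areg and Aldh1a3) were higher and 0 lower, with Cldn4, a tight junction claudin, at 549.8 FPKM in LCC and 40.2 FPKM in E-Int29-Hi. By any amount, 6 luminal genes stood above E-Int29-Hi in LCC and 6 below, among them Gata3 (-1.38), Esr1 (-1.23), Pgr (-1.38) and Cited1 (-1.88), and the list's median was 0.47. The background was 4.64% higher and 4.35% lower. Compared with MG, 5 luminal genes, Elf5, Esr1, Pgr, Prlr and Cited1, were lower in LCC and 0 were higher (median -1.63). Of the simple keratins, Krt7, Krt8 and Krt18 stood above MG in LCC, and Krt19 (-0.997) and Krt23 (-0.59) below it, all by less than the threshold. For the same pair 2 of the basal genes, Myh11 and Oxtr, were called lower and 0 higher, 11 of 12 stood below MG by any amount, and the median was -0.94, beside 0.01 over all gene names and a background of 1.33% higher and 2.63% lower. Of the basal keratins, Krt5, Krt14, Krt16 and Krt17 stood above MG in LCC, Krt16 past the threshold. Krt15 went the other way and was called lower (-3.44).

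Several cell types other than mammary epithelium express keratins, and their markers differed between the libraries too. Lung epithelium carries K7, K8, K18 and K19, and transcripts of its markers were found in LCC. Of 15 markers, 14 reached 1 FPKM in LCC, against 5 in E-Int29-Hi and 5 in MG. Their sum was 673 FPKM in LCC, 15.8 FPKM in E-Int29-Hi and 13.3 FPKM in MG, with the club cell gene Scgb1a1 at 572 FPKM in LCC. Without Scgb1a1 the highest was the surfactant gene Sftpc at 36.3 FPKM, and Nkx2-1, the lung lineage factor, stood at 0.177 FPKM in LCC and was listed at 0 in both other libraries. Of 14 markers compared in each pair with LCC, 7 were called higher in LCC than in E-Int29-Hi and 0 lower. The background was 4.64% higher and 4.35% lower. Against MG, 8 were called higher and 0 lower, beside 1.33% and 2.63%. The list's median log2 difference was 2.03 in both pairs, beside 0.26 and 0.01 over all gene names. In each pair 13 of the 14 stood above the other library in LCC by any amount, a count not made over all gene names. The exceptions were Foxj1 (7.75 FPKM in E-Int29-Hi, 3.69 FPKM in LCC) and Hopx (6.13 FPKM in MG, 4.17 FPKM in LCC). The part of lung epithelium in the simple keratin levels of LCC was not tested.

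Salivary gland markers, whose ducts carry simple keratins and whose myoepithelium carries K14, summed to 344 FPKM in E-Int29-Hi over 10 genes, of which Muc19 and Prol1 were listed at 0, beside 2.30 FPKM in LCC and 4.85 FPKM in MG. In E-Int29-Hi 7 of the 10 reached 1 FPKM, and in LCC and MG 1 each. The highest was Psp at 147 FPKM. The part of salivary tissue in the keratin levels of E-Int29-Hi was not tested. Of 12 markers of cornified epidermis, 2 reached 1 FPKM in each library. Their sum was 16.1 FPKM in LCC, 6.36 FPKM in E-Int29-Hi and 30.0 FPKM in MG, with Flg, Krtdap and Lce1a1 listed at 0 in LCC and E-Int29-Hi. The highest was Sprr1a in LCC (11.9 FPKM) and MG (20.3 FPKM), and Calml3 in E-Int29-Hi (3.44 FPKM), where Sprr1a stood at 0.962 FPKM. The part of cornified epidermis in Krt4 and Krt78 of MG was not tested.

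Markers of cells that lack keratins also differed between the libraries. Fibroblast markers (12 genes, all at 1 FPKM or more in each library) summed to 1870 FPKM in LCC, 196 FPKM in E-Int29-Hi and 3380 FPKM in MG. Endothelial markers (12 genes, also at 1 FPKM or more in each) summed to 199 FPKM in LCC, 189 FPKM in E-Int29-Hi and 788 FPKM in MG. Leukocyte markers summed to 288 FPKM in LCC (11 of 11 genes at 1 FPKM or more), 29.9 FPKM in E-Int29-Hi (8 genes) and 76.0 FPKM in MG (11 genes). The keratin share of all FPKM was lowest in MG, where the fibroblast and endothelial sums were highest, and their part in the keratin levels was not tested.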

How the data were processed

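Poly-T captured RNA of 3 pools was made into Illumina TruSeq libraries, per the labels' protocols. Each deposited table lists genes with the authors' FPKM and a status. The submitters' processing notes name TopHat 1.4.1, Cufflinks 1.3.0 and the genome build mm9 with no role for any of them. No annotation release is stated. Of 22378 gene models, 78 had no value, and the 22188 marked OK in each of the 3 tables entered the comparisons. Where a name stood on several models, the one with the highest summed FPKM was kept, which left 22077 names.

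Log2((FPKM + 1)/(FPKM + 1)) was computed per pair of libraries for genes at 1 FPKM or more in either. With 1 library per group no test was possible. Named were all keratins at 1 FPKM or more in any library, low keratins above 0 in every library, called and highest members of the other lists, and the highest markers. The members and lists were chosen with earlier results of these data known. Hair follicle, marker and role lists are textbook lists. Promoter windows are RefSeq (GRCm38.p6), found for 33 of 46 keratins, and those not at the annotated gene start were left out of keratin counts. Fold calling was tested on simulated data with counting noise alone at an assumed depth. This checks the working of the rule and cannot show how far calls between single libraries would repeat. Python 3.11.15, numpy 2.4.6, pandas 2.3.3 and matplotlib 3.10.9 were used.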

Additional observations from a re-analysis of the deposited data

How the results depend on the processing

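No paired analysis was possible because each group is 1 library. Nothing here has a replicate error, and with unknown depth the levels under 1 FPKM cannot be ordered. Keratin counts between LCC and E-Int29-Hi stayed within 1.5 times under all alternatives fixed at the start. For LCC over MG the count lower, 2 as reported, was 4 with a pseudocount of 0.1, 4 in TPM, 4 at 2-fold and 1 with a pseudocount of 5. The count higher, 1 as reported, was 6 at 2-fold. TPM gives each library the same sum, and its values are larger than FPKM. The pseudocount and filter stayed at 1, so they weighed less there and the TPM counts do not show the equal sums alone. For E-Int29-Hi over MG the count lower, 4 as reported, was 7 at 2-fold. Dropping the 1 FPKM filter could not change a keratin call, since genes under it in both libraries cannot reach 4-fold on this scale. Taking genes of every status could not either, since all keratins were OK, and the 2-fold setting could only add calls. Of 360 values for single keratins, 335 kept their call, these fixed ones included, 19 gained one and 4 lost one. Another 2, both for Krt78 near 0 in LCC and E-Int29-Hi, changed sign without a call. The 4 were Krt42 (LCC over E-Int29-Hi, and E-Int29-Hi over MG), Krt15 (LCC over MG) and Krt23 (E-Int29-Hi over MG), all with a pseudocount of 5, which shrinks low genes by its construction.

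Over all gene names, scaling by median ratios moved the median for LCC over E-Int29-Hi from 0.26 as deposited to 0.00, near which its construction brings it. The same scaling moved the split of calls to 451 higher and 700 lower, beside 564 and 528. For E-Int29-Hi over MG it gave 465 and 356, beside 323 and 494, and TPM gave 375 and 1011. For LCC over MG, TPM gave 157 and 919, beside 166 and 327. A pseudocount of 0.1 gave 1128 and 947, 334 and 815, and 521 and 1089 for the 3 comparisons in the order of the report, a pseudocount of 5 gave 209 and 235, 71 and 95, and 138 and 159, and 2-fold gave 2571 and 1717, 1362 and 1597, and 1117 and 1930.

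The keratin sum for LCC, E-Int29-Hi and MG, in that order here and after, was 4496, 6157 and 2228 by median ratios and 12633, 16303 and 8438 in TPM. The log2 ratio of Krt8 plus Krt18 to Krt5 plus Krt14 (3.59, -3.47 and 3.13) kept its sign without the most abundant keratin of that ratio in each library (2.06, -0.75 and 1.92). That of type I to type II (0.96, 2.88 and 0.76) reversed without Krt18 in LCC (-1.08) and MG (-0.35) and was 1.86 without Krt14 in E-Int29-Hi. Chosen after seeing the data, leaving out Krt8 gave 2.97, -5.25 and 2.32 for the first ratio. Adding Krt6a and Krt6b gave 0.95, 2.86 and 0.69 for the second, sums of 4752, 5321 and 2475 FPKM, simple keratin shares of 86.7% in LCC and 82.1% in MG, and basal shares of 12.997% and 12.8%.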

Other observations

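Krt6a and Krt6b, type II keratins induced with K16 and K17 in wounded epidermis, fall outside the naming rule and were read after their values were seen. Krt6a stood at 9.98 FPKM in LCC, 6.98 FPKM in E-Int29-Hi and 39.5 FPKM in MG, and Krt6b at 0.804 FPKM in LCC, 0.695 FPKM in E-Int29-Hi and 4.20 FPKM in MG. Both were thus highest in MG, where Krt16 and Krt17 were lowest. The log2 difference of Krt6a was -2.35 for E-Int29-Hi over MG, past the threshold, and -1.88 for LCC over MG, short of it. Windows of 50 bases shared with another gene made up 62.0% of the Krt6a transcript and 50.1% of Krt6b, mainly with each other, so their separate values are uncertain.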
